A study of Homo sapiens with 6 samples.

Results

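Zinc finger genes numbered in the ZNF series were followed in the established human breast cancer line MDA-MB-231, which lacks hormone receptors. The cells were transfected with siRNA against PHF20L1 (siPHF20L1, 3 libraries) or with a control siRNA (siControl, 3 libraries). PHF20L1 is a nuclear protein with Tudor domains that binds methylated lysines, and the series asks which transcripts depend on it. Per the labels, all 6 libraries came from this 1 cell line, while neither the siRNA sequences nor a time of harvest is given in the sources used here. A gene was taken when its symbol was ZNF followed by digits, with or without a closing letter, and when its mean over the 6 libraries was at least 3 FPKM (fragments per kilobase of transcript, scaled to the mapped fragments of a library, the deposited unit). This left 208 of 496 ZNF-numbered genes, out of 17452 genes in all.

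C2H2 zinc finger proteins read DNA through tandem fingers, each a short loop in which cysteines and histidines hold a zinc ion. Many carry a KRAB domain near the amino end, which binds the corepressor TRIM28. TRIM28 in turn brings the methyltransferase SETDB1 and heterochromatin proteins, and many KRAB zinc finger proteins silence transposable elements this way. Genes of this class lie in clusters that grew by duplication, many of them on chromosome 19. Other ZNF-numbered proteins have no KRAB domain and include promoter factors, RNA-binding proteins and ubiquitin ligases.

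The libraries were of like depth, and the targeted transcript followed its label in each of them. Steps in the low FPKM values put the depth at an estimated 17000000 to 17500000 fragments per library. PHF20L1 (Entrez 51105) had 2.67, 2.31 and 2.74 FPKM in siPHF20L1 libraries, against 15.75, 12.48 and 12.73 FPKM in siControl libraries. Its log2 difference was -2.03 (SE 0.10, limma, adjusted p = 1.46e-06). The label of the cell line held against its markers, with VIM, CD44, EGFR, AXL, CAV1 and FOSL1 abundant, ESR1 at 0 in every library and CDH1 and PGR at or under 0.45 FPKM. FOXA1, GATA3 and EPCAM, other luminal or epithelial markers, lay between 1.07 and 5.13 FPKM. Some of these markers moved with the siRNA, with limma log2 differences of -0.97 for AXL, -0.68 for VIM, -0.55 for FOSL1, -0.37 for CAV1, -0.68 for FOXA1 and 0.72 for EPCAM, all past the threshold, while CD44, EGFR and GATA3 did not pass. The part of such a shift in the ZNF differences was not tested. Of the markers of other cells, CD3E and PECAM1 stayed at or under 0.5 FPKM, PTPRC ranged from 0.87 to 1.43 FPKM, PDGFRB from 1.30 to 2.01 FPKM and COL1A1 from 4.24 to 6.18 FPKM; PDGFRB rose and COL1A1 fell, by log2 differences of 0.27 and -0.24. Libraries numbered 1 stood apart from those numbered 2 and 3 in both groups, so differences within numbers are given where they matter. Whether the libraries of 1 group stem from separate cultures is not stated in the labels, and p-values therefore cover only the scatter among these libraries, possibly a technical one.

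The 208 genes were low to moderate in level. Their mean over 6 libraries ran between 3.01 and 72.6 FPKM with a median of 6.1 FPKM, while the 11560 genes tested had a median of 12.3 FPKM. The members lay on 20 chromosomes, with 73 of them on chromosome 19. A KRAB A-box was found in the annotated proteins of 104 members and not in those of the other 104. KRAB members had a median of 11 C2H2 fingers and a mean level of 4.69 FPKM at the median, and members without KRAB had 6.5 fingers and 10.2 FPKM. No C2H2 match was found in 6 members, ZNF185, ZNF330, ZNF503, ZNF703, ZNF839 and ZNF862. Within a group, the coefficient of variation of a member had a median of 8.53% in siPHF20L1 libraries and 9.2% in siControl libraries.

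More ZNF members were higher than lower after siPHF20L1, and most of the higher ones encode KRAB proteins. In limma over all genes tested, 107 of the 208 members rose and 25 fell at an adjusted p under 0.05, and 76 did not pass. Among all 11560 genes tested, 34.0% rose and 24.7% fell. The median log2 difference on the log2(FPKM + 1) scale was 0.25 over the members and 0.05 over all genes tested. With the replicate number as a block, 118 members rose and 40 fell, and 4946 genes rose and 3846 fell among all tested. Same-numbered libraries correlated, though the numbers 2 and 3 were not told apart.

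KRAB members accounted for 70 of the 107 rises and 5 of the 25 falls. Their median log2 difference was 0.42, and their lower and upper quartiles were 0.10 and 0.71. Of the 104 members without KRAB, 37 rose and 20 fell, with a median of 0.07, so that their share of rises, 35.6%, was close to the background of all genes. The block gave 74 rises and 8 falls for KRAB members and 44 rises and 32 falls for the others. The difference between the classes was not tested. Leaving out each library in turn, 60 of the 70 rises of KRAB members and 33 of the 37 rises of the others were kept in every fit, as were 4 of the 5 falls of KRAB members and 14 of the 20 falls of the others.

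**Figure D1:**
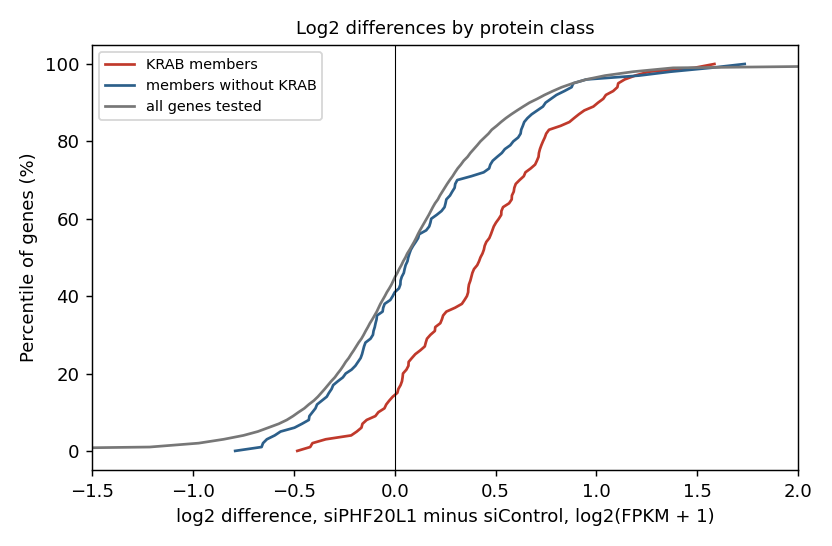
Percentile of genes (vertical axis) against the log2 difference, siPHF20L1 minus siControl, for the 104 KRAB members, the 104 members without KRAB and all 11560 genes tested. The curve of KRAB members lies to the right, with its median at 0.42, against 0.07 for members without KRAB and 0.05 for all genes.

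The libraries themselves separated for many members. In 110 members every siPHF20L1 library lay above every siControl library, and in 28 every one lay below. Over all genes tested these shares were 36.7% above and 27.0% below. For KRAB members the counts were 71 above and 6 below, and for members without KRAB 39 above and 22 below. With at least 3 FPKM in each group, 43 of 74 KRAB members lay above and 6 below. Of 95 members without KRAB, 34 lay above and 20 below. All 9435 genes held to that level gave 3295 above and 2693 below. Summed over the 104 KRAB members, the level was 742.7, 727.7 and 723.1 FPKM in siPHF20L1 libraries, against 550.4, 530.8 and 523.0 FPKM in siControl libraries. Every siPHF20L1 sum was thus above every siControl sum. Summed over the 104 members without KRAB, it was 1371.2, 1420.3 and 1415.3 FPKM in siPHF20L1 libraries, against 1251.0, 1284.0 and 1294.2 FPKM in siControl libraries. The KRAB sums include 30 genes with a mean under 3 FPKM in siControl, and the sums of the others include 7. Such genes favour higher siPHF20L1 sums, and no sums were taken without them.

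The rule for members uses a mean over both groups, so a gene that is high in 1 group can enter through that group. A mean under 3 FPKM in siControl was found for 37 members, of which 33 rose and 0 fell, and 30 of the 37 were KRAB genes. A mean under 3 FPKM in siPHF20L1 was found for 2 members, ZNF800 and ZNF654, and both fell. Among the 169 members with at least 3 FPKM in each group, 74 rose and 23 fell with a median of 0.15. Among all genes held to the same level, 32.4% rose and 26.0% fell. Of the 74 KRAB members left, 42 rose and 5 fell (median 0.31), and of the 95 others, 32 rose and 18 fell (median 0.05). All of these medians were smaller than those over the full set.

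The classes were also compared within ranges of level. With a mean of 3 to 10 FPKM, 63 of 92 KRAB members rose and 3 fell. In the same range 14 of 51 members without KRAB rose and 10 fell. Over all genes of that range the shares were 35.9% higher and 22.9% lower. Held to at least 3 FPKM in each group as well, 35 of 62 KRAB members in this range rose and 3 fell, and 9 of 42 members without KRAB rose and 8 fell, beside shares of 32.6% higher and 21.8% lower over all such genes. At 10 FPKM or more, 7 of 12 KRAB members rose and 2 fell, and 23 of 53 members without KRAB rose and 10 fell. Spearman's rho between mean FPKM and the log2 difference was -0.02 over the 104 KRAB genes, which share the same 6 libraries.

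Just inside the threshold of 3 FPKM stood ZNF691, ZNF549 and ZNF783, with means of 3.01, 3.07 and 3.08 FPKM. Just outside stood ZNF776, ZNF430 and ZNF850, with means of 2.99, 2.96 and 2.95 FPKM. Their log2 differences were 0.25, 0.40 and 0.59 inside and 0.64, 0.86 and -0.28 outside. Of the 288 ZNF-numbered genes under the threshold, 175 were tested, and 90 of these rose and 7 fell. Over all genes tested 34.0% rose and 24.7% fell, and no share was taken over all genes of this low level. A low gene could enter the test through the 3 libraries of 1 group alone, which favours differences toward that group. A further 6 of the 288 were listed at 0 in every library.

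**Figure D2:**
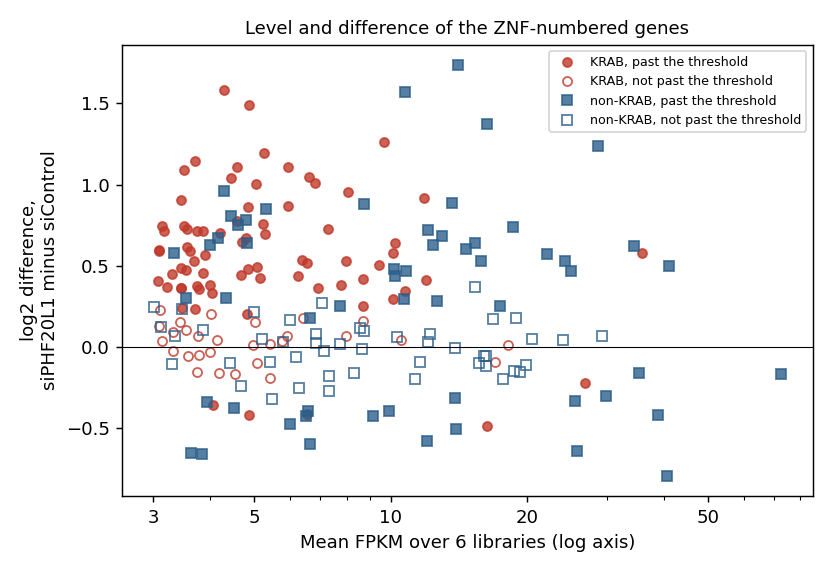
Log2 difference, siPHF20L1 minus siControl (vertical axis), against the mean FPKM over 6 libraries (log axis) for each of the 208 members. Circles are KRAB members and squares members without KRAB, filled where the adjusted p was under 0.05. Most filled circles lie above 0, while filled squares lie on both sides.

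A difference of at least 2-fold on the log2(FPKM + 1) scale was reached by 16 members that rose, 12 of them KRAB genes and 4 without KRAB, and by 0 that fell. Over all genes tested, 3.34% rose and 1.89% fell by that much. Of the 12 KRAB genes 7 had a mean under 3 FPKM in siControl, and among members with at least 3 FPKM in each group 5 KRAB genes and 4 without KRAB rose by that much and 0 fell. All genes held to that level gave 3.07% and 1.77%. The largest rise among KRAB genes was that of ZNF468 (Entrez 90333), on chromosome 19. It had 7.54, 6.57 and 6.72 FPKM in siPHF20L1 libraries, against 1.67, 1.66 and 1.60 FPKM in siControl libraries. This gave a log2 difference of 1.59 (SE 0.08, limma, adjusted p = 1.28e-06), with a gap between the groups several times the spread within them. ZNF227 (Entrez 7770) had 7.65, 7.73 and 7.60 FPKM in siPHF20L1 libraries, against 1.80, 2.44 and 2.03 FPKM in siControl libraries. That was a log2 difference of 1.49 (SE 0.09, limma, adjusted p = 3.32e-06), with the siPHF20L1 libraries almost level. ZNF317 (Entrez 57693) had 14.26, 13.90 and 13.93 FPKM in siPHF20L1 libraries, against 4.73, 5.73 and 5.35 FPKM in siControl libraries. It rose by a log2 difference of 1.26 (SE 0.08, limma, adjusted p = 3.69e-06).

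The next KRAB genes in order of size were ZNF93, ZNF680, ZNF71, ZNF688 and ZNF91. ZNF93 (Entrez 81931), known to bind and silence LINE-1 elements, had 8.51, 7.17 and 7.52 FPKM in siPHF20L1 libraries, against 2.49, 3.08 and 2.86 FPKM in siControl libraries. It rose by a log2 difference of 1.20 (SE 0.09, limma, adjusted p = 1.18e-05). ZNF91 (Entrez 7644), known to silence SVA elements and the member of the KRAB class with most fingers, 31, had 6.01, 4.38 and 4.96 FPKM in siPHF20L1 libraries, against 2.47, 1.33 and 1.87 FPKM in siControl libraries. Its log2 difference was 1.09 (SE 0.15, limma, adjusted p = 0.000364), and the library numbered 1 was the highest of its group on both sides. ZNF680 had 6.48, 4.97 and 4.96 FPKM in siPHF20L1 libraries, against 2.49, 1.56 and 1.76 FPKM in siControl libraries. ZNF71 had 7.43, 9.22 and 8.85 FPKM in siPHF20L1 libraries, against 3.26, 3.40 and 3.52 FPKM in siControl libraries. ZNF688, with 2 fingers, had 5.64, 6.57 and 7.64 FPKM in siPHF20L1 libraries, against 2.32, 3.25 and 2.08 FPKM in siControl libraries. The groups did not overlap in any of these genes. Genes of this family share long stretches of like sequence, and how reads with several matches were counted was not given in the sources used here.

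Rises of like size were seen in 4 genes without KRAB. ZNF664 (Entrez 144348) had the largest difference of all members, with 24.04, 21.59 and 21.06 FPKM in siPHF20L1 libraries, against 6.93, 5.61 and 5.45 FPKM in siControl libraries. The rise came to 1.74 on the log2 scale (SE 0.09, limma, adjusted p = 2.32e-06), and a read-through row of ZNF664 with FAM101A stayed between 0 and 0.03 FPKM. ZNF629, with 19 fingers, had 15.99, 16.86 and 16.90 FPKM in siPHF20L1 libraries, against 5.0, 4.83 and 4.91 FPKM in siControl libraries. ZNF76, a relative of the promoter activator ZNF143, had 21.23, 24.67 and 26.00 FPKM in siPHF20L1 libraries, against 8.42, 8.50 and 8.85 FPKM in siControl libraries. ZNF438 had 40.21, 39.76 and 41.74 FPKM in siPHF20L1 libraries, against 17.18, 16.33 and 16.43 FPKM in siControl libraries. The log2 differences of these last genes were 1.57, 1.38 and 1.24, with SE of 0.06, 0.08 and 0.06. ZNF438 was the most abundant of the members with a difference of this size.

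**Figure D3:**
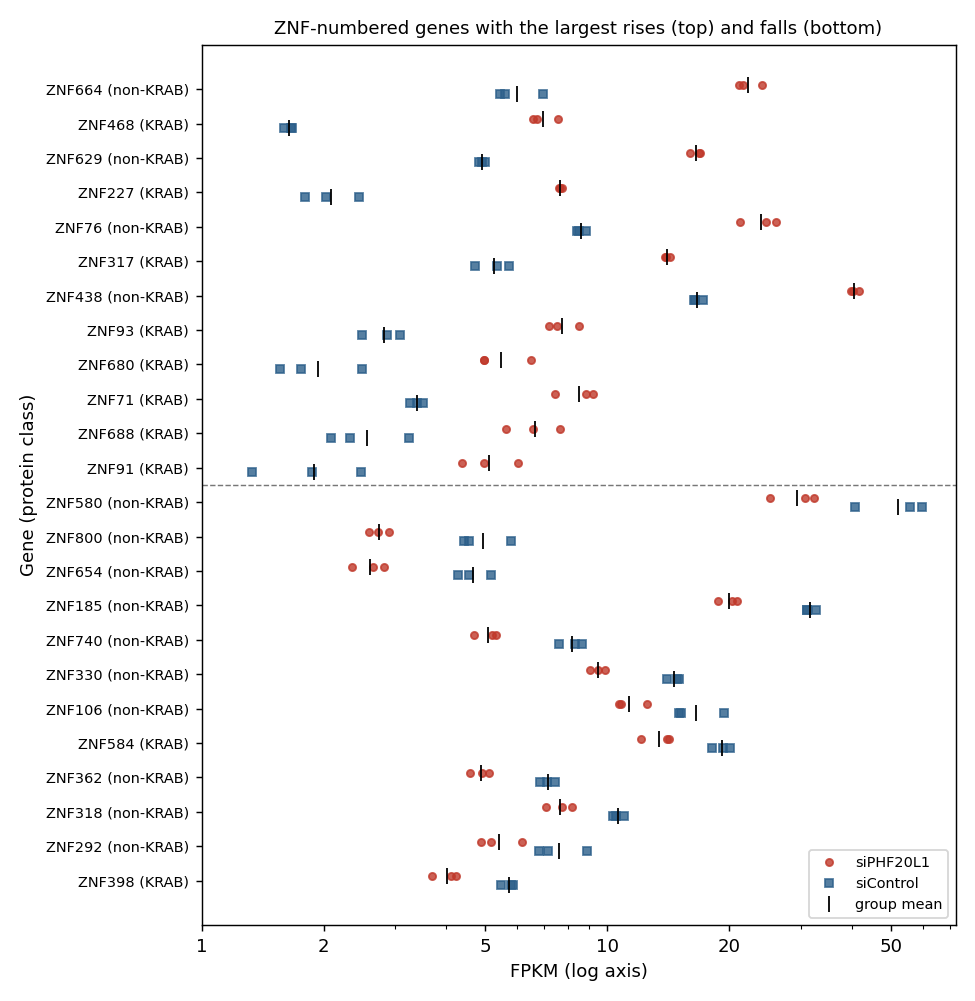
FPKM (log axis) in each library for the 12 members with the largest rises (above the dashed line) and the 12 with the largest falls (below it). Circles are siPHF20L1 libraries, squares siControl libraries and bars group means. In none of the 24 genes do the groups overlap, and 8 of the 12 largest rises but 2 of the 12 largest falls are KRAB genes. The rule favours that contrast. The KRAB genes ZNF468, ZNF227, ZNF93, ZNF680, ZNF688 and ZNF91 had means under 3 FPKM in siControl and were members only through siPHF20L1. ZNF800 and ZNF654, without KRAB, had means under 3 FPKM in siPHF20L1 and were members only through siControl.

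Falls were smaller and fell mostly on genes without KRAB. ZNF580 (Entrez 51157) had the largest, with 25.20, 32.27 and 30.75 FPKM in siPHF20L1 libraries, against 40.75, 55.70 and 59.62 FPKM in siControl libraries. The log2 difference of ZNF580 was -0.79 (SE 0.14, limma, adjusted p = 0.00154). ZNF581, its neighbour on chromosome 19, had 25.13, 32.42 and 30.03 FPKM in siPHF20L1 libraries, against 20.04, 20.06 and 21.95 FPKM in siControl libraries. This neighbour thus went the other way, with a log2 difference of 0.47 (SE 0.09, limma, adjusted p = 0.00243). ZNF800 had 2.89, 2.59 and 2.72 FPKM in siPHF20L1 libraries, against 5.79, 4.44 and 4.55 FPKM in siControl libraries. ZNF654 had 2.81, 2.35 and 2.64 FPKM in siPHF20L1 libraries, against 5.18, 4.28 and 4.55 FPKM in siControl libraries. Both had a lower level in every siPHF20L1 library, with log2 differences of -0.66 and -0.65.

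ZNF185, a LIM domain protein of the actin cytoskeleton with no C2H2 match, had 20.27, 18.75 and 20.85 FPKM in siPHF20L1 libraries, against 31.11, 30.96 and 32.68 FPKM in siControl libraries. Its log2 difference was -0.64 (SE 0.06, limma, adjusted p = 4.32e-05), the smallest p among the 12 largest falls. ZNF330, a nucleolar protein, had 9.89, 9.04 and 9.49 FPKM in siPHF20L1 libraries, against 14.81, 15.03 and 14.04 FPKM in siControl libraries. ZNF106, an RNA-binding protein, had 12.53, 10.78 and 10.66 FPKM in siPHF20L1 libraries, against 19.34, 15.06 and 15.20 FPKM in siControl libraries. In both genes the highest siPHF20L1 library lay below the lowest siControl library. The other falls of this group, in ZNF740, ZNF362, ZNF318 and ZNF292, had log2 differences between -0.60 and -0.43.

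The 5 KRAB genes that fell were ZNF584, ZNF398, ZNF789, ZNF700 and ZNF655; the last 3 are named because the count is small and were singled out after their values were seen. ZNF584 had 12.08, 14.19 and 14.04 FPKM in siPHF20L1 libraries, against 18.13, 20.01 and 19.31 FPKM in siControl libraries, a log2 difference of -0.48 (SE 0.08, limma, adjusted p = 0.000771). ZNF398 had 4.23, 3.70 and 4.13 FPKM in siPHF20L1 libraries, against 5.87, 5.47 and 5.79 FPKM in siControl libraries. The log2 differences of ZNF398, ZNF789, ZNF700 and ZNF655 were -0.42, -0.41, -0.35 and -0.22. None of these 5 fell by as much as the 12 largest rises of the members rose.

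The windows upstream of the start site are shown for 6 KRAB genes that rose and 1 that fell, since members that moved together can be compared by their promoter letters. ZNF468, ZNF227, ZNF317 and ZNF93 were the 4 largest KRAB rises with a promoter in the table. ZNF680 and ZNF91 were added because they were the largest rises whose window holds an ETS core, the letters bound by ETS factors, and ZNF584 was the largest KRAB fall. Each is the 150 bases before the RefSeq start (GRCh38.p14), read 5′ to 3′ on the strand of the gene, with ETS cores (CCGGAAG or CTTCCGG) and CCAAT boxes (CCAAT or ATTGG) in capitals.
ZNF468, chr19:52857620-52857769, minus strand: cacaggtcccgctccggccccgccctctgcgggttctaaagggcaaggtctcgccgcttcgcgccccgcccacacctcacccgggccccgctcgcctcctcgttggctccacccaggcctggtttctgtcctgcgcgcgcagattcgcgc
ZNF227, chr19:44212382-44212531, plus strand: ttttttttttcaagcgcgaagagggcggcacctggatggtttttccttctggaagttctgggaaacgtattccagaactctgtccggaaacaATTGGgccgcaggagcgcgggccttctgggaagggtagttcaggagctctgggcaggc
ZNF317, chr19:9140247-9140396, plus strand: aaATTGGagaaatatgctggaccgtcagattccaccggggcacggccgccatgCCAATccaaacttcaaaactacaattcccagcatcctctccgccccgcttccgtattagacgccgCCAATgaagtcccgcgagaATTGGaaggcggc
ZNF93, chr19:19900796-19900945, plus strand: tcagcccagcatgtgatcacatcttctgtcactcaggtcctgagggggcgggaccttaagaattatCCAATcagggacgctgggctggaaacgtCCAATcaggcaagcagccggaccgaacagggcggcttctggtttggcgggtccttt
ZNF680, chr7:64563072-64563221, minus strand: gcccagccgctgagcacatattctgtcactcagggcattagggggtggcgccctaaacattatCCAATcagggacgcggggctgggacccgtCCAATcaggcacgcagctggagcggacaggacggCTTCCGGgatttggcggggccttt
ZNF91, chr19:23395472-23395621, minus strand: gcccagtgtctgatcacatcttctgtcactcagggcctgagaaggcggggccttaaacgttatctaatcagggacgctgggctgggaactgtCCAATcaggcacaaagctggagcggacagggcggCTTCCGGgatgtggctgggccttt
ZNF584, chr19:58408499-58408648, plus strand: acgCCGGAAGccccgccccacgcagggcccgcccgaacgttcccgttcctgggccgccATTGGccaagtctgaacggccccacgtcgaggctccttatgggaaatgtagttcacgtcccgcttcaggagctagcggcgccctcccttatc
The window of ZNF468 holds neither motif and that of ZNF227 holds 1 CCAAT box. The windows of ZNF680 on chromosome 7 and ZNF91 on chromosome 19 were identical at 128 of 150 positions compared without gaps (85.3%), and both hold 1 ETS core at the same place. The other 20 pairs of these 7 windows were identical at 16.0% to 30.0% of positions. Positions were compared without shifts, so like stretches lying a few bases apart were missed. The windows of ZNF93, ZNF680 and ZNF91 all hold ttctgtcactcagg, which lies a few bases later in ZNF93. Low values therefore do not show that windows are unlike. ZNF93 holds 2 CCAAT boxes and no ETS core, and ZNF317 holds 4 CCAAT boxes. ZNF584, which fell, holds 1 ETS core and 1 CCAAT box.

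Letter matches were counted over the whole 300-base RefSeq promoters, 250 bases before to 50 after the start, for the 179 of 208 members that had one. The ETS core, on either strand, was in 48.9% of 90 KRAB promoters and 34.8% of 89 promoters of members without KRAB, against 15.6% of the 13897 promoters of all genes in the files. CCAAT on either strand was in 58.9% of KRAB promoters and 30.3% of the others, against 36.3% of all. Within the KRAB class, the ETS core was in 47.5% of the 59 promoters of genes that rose and 51.6% of the 31 of genes that did not. CCAAT was in 59.3% and 58.1% of these promoters, and the GC box GGGCGG or CCGCCC in 55.9% and 77.4%. Promoters of KRAB genes thus held the ETS core in like shares whether or not the gene rose. A match of letters does not show that a factor binds there.

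Number of fingers and position were compared next within the KRAB class. With 0 to 6 fingers, 8 of 17 KRAB genes rose and 1 fell, with a median log2 difference of 0.15. With 7 to 9 fingers, 14 of 26 rose and 3 fell (median 0.35), and with 10 to 13, 22 of 31 rose and 0 fell (median 0.37). With 14 fingers or more, 26 of 30 rose and 1 fell (median 0.56). The rule favours these counts, since 12 of the 30 genes with 14 fingers or more, all of them risers, had a mean under 3 FPKM in siControl. With at least 3 FPKM in each group, 4 of 13, 11 of 23, 13 of 20 and 14 of 18 KRAB genes rose from the lowest to the highest class, with medians of 0.07, 0.18, 0.30 and 0.47, beside 32.4% of all genes held to that level. Spearman's rho between fingers and log2 difference was 0.29 over the 104 KRAB genes and 0.22 over the 104 members without KRAB, given as a description over genes that share the same libraries. Over the 74 KRAB genes and 95 others with at least 3 FPKM in each group it was 0.29 and 0.19. Among members without KRAB, 10 of 30 with 0 to 3 fingers rose and 14 fell, 12 of 42 with 4 to 9 rose and 4 fell, and 15 of 32 with 10 or more rose and 2 fell. With at least 3 FPKM in each group, 10 of 30, 11 of 38 and 11 of 27 rose, and 14, 2 and 2 fell. All genes held to that level gave 32.4% higher and 26.0% lower. Among these classes without KRAB, the one with the fewest fingers was the one with more falls than rises. A SCAN domain, which pairs zinc finger proteins with one another, was found in 11 members, of which 5 rose and 0 fell, and 3 of 9 rose with at least 3 FPKM in each group.

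**Figure D4:**
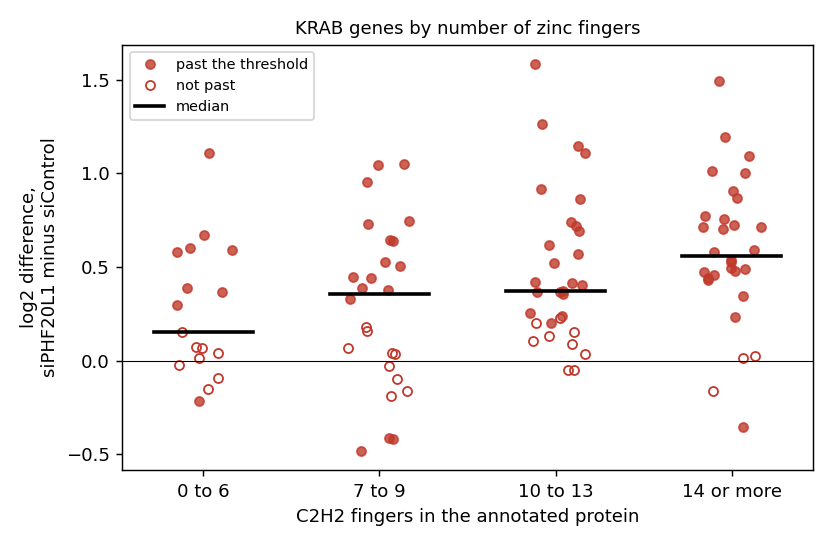
Log2 difference, siPHF20L1 minus siControl (vertical axis), for each of the 104 KRAB members, by the number of C2H2 fingers in the annotated protein. Filled points had an adjusted p under 0.05, and bars are medians, which were 0.15, 0.35, 0.37 and 0.56 from the lowest to the highest class. Without the 30 genes under 3 FPKM in siControl, the medians were 0.07, 0.18, 0.30 and 0.47.

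KRAB genes were also split by position. On chromosome 19, 36 of 51 rose and 2 fell (median 0.43), and elsewhere 34 of 53 rose and 3 fell (median 0.42). With at least 3 FPKM in each group these were 20 of 33 (median 0.36) and 22 of 41 (median 0.24). In the gene order of RefSeq, 60 members stood beside another member with no other gene of these data between them. They made up 26 runs with 34 neighbouring pairs. Both genes rose in 15 of these pairs, both fell in 0, and 2 pairs moved in opposite directions, ZNF581 with ZNF580 and ZNF584 with ZNF324B. Of the 23 pairs in which both genes had at least 3 FPKM in each group, 5 had both genes higher. Of all members 51.4% rose, as did 43.8% of those with at least 3 FPKM in each group. The counts of pairs therefore do not show that neighbours moved together. Neighbouring pairs of other genes were not counted. Among the pairs in which both rose, singled out after their values were seen, were ZNF33A and ZNF37A on chromosome 10, with log2 differences of 1.00 and 0.92, and ZNF141 and ZNF721 on chromosome 4, with 0.72 and 0.91. The longest run held 6 KRAB genes on chromosome 7. In that run ZNF398 fell, ZNF212, ZNF783 and ZNF777 rose and ZNF282 and ZNF746 did not pass.

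KRAB proteins with known repeat or imprint targets were listed by function, with 11 genes in the list and 7 of them members. Of these 7, 6 rose and 0 fell, with a median of 0.72, beside 34.0% of all genes tested that rose. ZNF91, ZNF93, ZNF141 and ZNF417 had means under 3 FPKM in siControl and were members only through siPHF20L1, and of the 3 others, ZNF248 and ZNF587 rose and ZNF445 did not pass. Beside ZNF91 and ZNF93, ZNF248 had 10.30, 9.63 and 8.09 FPKM in siPHF20L1 libraries, against 5.90, 4.45 and 5.36 FPKM in siControl libraries. ZNF141 had 5.03, 3.43 and 4.06 FPKM in siPHF20L1 libraries, against 2.84, 1.78 and 1.85 FPKM in siControl libraries. ZNF417 and ZNF587, near-identical genes known to bind the endogenous retrovirus HERV-K, had log2 differences of 0.37 each (limma, adjusted p = 0.0105 and 0.00851), and reads could be shared between them. ZNF445, a keeper of genomic imprints, had 5.64, 4.60 and 4.73 FPKM in siPHF20L1 libraries, against 5.64, 4.74 and 4.44 FPKM in siControl libraries. Its groups overlapped, with a log2 difference of 0.01 (SE 0.10, limma, adjusted p = 0.922). ZNF765, under the level threshold, rose as well, and ZFP57, ZNF382 and ZNF649 were too low to be tested.

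Partners of KRAB proteins did not move in 1 direction. Of 21 listed genes of the corepressor and of H3K9 methylation, 9 rose and 4 fell, with a median of 0.05. The shares over all genes tested were 34.0% higher and 24.7% lower, also with a median of 0.05. With the replicate block 20 of the 21 passed in either direction, as did 8792 of all 11560 genes tested. TRIM28, the corepressor bound by KRAB, had 145.05, 181.10 and 181.18 FPKM in siPHF20L1 libraries, against 168.10, 199.92 and 208.22 FPKM in siControl libraries. The groups overlapped, with a log2 difference of -0.18 (SE 0.11, limma, adjusted p = 0.175), and the adjusted p was 0.000431 with the replicate block. Over the alternatives tried it ran between 0.000431 and 0.475. SETDB1, the H3K9 methyltransferase recruited by TRIM28, had 11.42, 11.03 and 10.28 FPKM in siPHF20L1 libraries, against 8.47, 8.67 and 8.02 FPKM in siControl libraries, a log2 difference of 0.34 (SE 0.07, limma, adjusted p = 0.00255). The deacetylase HDAC1 had a log2 difference of 0.63, the methyltransferase EHMT1 0.63 and the remodeller CHD3 0.48, all past the threshold. UHRF1, which reads H3K9 methylation, had 29.31, 31.99 and 31.91 FPKM in siPHF20L1 libraries, against 45.39, 46.81 and 48.21 FPKM in siControl libraries, a log2 difference of -0.58. The other falls were in SUV39H1, PPHLN1 and EHMT2, with log2 differences of -0.30, -0.22 and -0.195. Of 14 alternatives, the call of SUV39H1 was lost in 0, that of PPHLN1 in 2 and that of EHMT2 in 7. Among the rises, the calls of SETDB1, HDAC1, EHMT1 and CHD3 were lost in 0. That of CBX1 was lost in 5, those of ATF7IP, FAM208A and ZNF274 in 3 each and that of SUV39H2 in 2. ZNF274 is itself a KRAB member.

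Sequence-specific promoter factors made up a second list, of 14 members, of which 6 rose and 0 fell with a median of 0.19. Without ZNF202, which had a mean under 3 FPKM in siControl, 5 of 13 rose with a median of 0.07, a share of 38.5% that is near the background. ZNF263 (Entrez 10127) had 8.52, 9.43 and 9.80 FPKM in siPHF20L1 libraries, against 3.80, 4.06 and 3.99 FPKM in siControl libraries, a log2 difference of 1.05 (SE 0.07, limma, adjusted p = 8.49e-06). ZNF202 had 4.41, 4.64 and 4.89 FPKM in siPHF20L1 libraries, against 2.44, 2.35 and 2.30 FPKM in siControl libraries. The remaining rises of the list, beside ZNF76, were in ZNF146, ZNF281 and ZNF341, with log2 differences of 0.53, 0.47 and 0.30, and the call of ZNF341 was lost without siPHF20L1 3, siControl 1 or siControl 2. ZNF143, the activator related to ZNF76, had 7.81, 7.67 and 7.85 FPKM in siPHF20L1 libraries, against 7.64, 7.53 and 7.81 FPKM in siControl libraries, so that its groups overlapped. ZNF148, ZNF217, ZNF219 and ZNF410 did not pass, but did with the replicate block, at limma adjusted p of 0.00405, 0.0108, 2.27e-05 and 0.0354. Their log2 differences there were -0.24, -0.15, 0.37 and -0.12, so that ZNF219 rose and the others fell. Over the alternatives their adjusted p reached 0.19, 0.563, 0.151 and 0.438.

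Members of corepressor complexes moved both ways. ZNF512B, which binds the NuRD deacetylase complex, had 10.95, 11.98 and 12.01 FPKM in siPHF20L1 libraries, against 5.34, 6.07 and 6.18 FPKM in siControl libraries. Its log2 difference was 0.88 (SE 0.08, limma, adjusted p = 2.50e-05). ZNF592 and ZNF687, partners in a complex with ZMYND8, went apart, with 12.11, 12.22 and 11.76 FPKM in siPHF20L1 libraries, against 7.87, 8.30 and 8.84 FPKM in siControl libraries for ZNF592. ZNF687 had 12.40, 12.60 and 11.73 FPKM in siPHF20L1 libraries, against 14.58, 15.38 and 16.33 FPKM in siControl libraries. Over the 9 members of this list 4 rose and 2 fell, with a median of 0.03. All genes with at least 3 FPKM in each group, as these 9 had, gave 32.4% higher and 26.0% lower. The list is too short to be told from that mix. The rise of ZNF703 (0.26) was lost in 9 of 14 alternatives, among them the removal of any library but siPHF20L1 1.

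Members that act on RNA, ribosomes, the spindle or ubiquitin had a median of 1.5 fingers, and 7 of the 12 listed fell while 2 rose (median log2 difference -0.16). Among all genes with at least 3 FPKM in each group, as these 12 had, 26.0% fell and 32.4% rose. Of these falls, that of ZNF330 alone was kept in all 14 alternatives, as were the rises of ZNF622 and ZNF346. ZNF598, a ubiquitin ligase of collided ribosomes, had 23.34, 29.27 and 27.59 FPKM in siPHF20L1 libraries, against 29.91, 35.44 and 33.89 FPKM in siControl libraries. Its log2 difference was -0.30 (SE 0.10, limma, adjusted p = 0.0244), and the adjusted p was 0.0922 without siControl 2 and 0.0695 without siControl 3 (2.36e-05 to 0.0922 over all alternatives). ZNF638 and ZNF326, both RNA-associated, had log2 differences of -0.39 and -0.34. The adjusted p of ZNF638 was 0.0559 without siPHF20L1 2 and 0.0595 without siPHF20L1 3, and that of ZNF326 was 0.0631 without siPHF20L1 3. Over all alternatives they ran between 3.33e-05 and 0.0622 and between 0.000802 and 0.0631. ZNF622, a maturation factor of the large ribosomal subunit, had 21.66, 24.06 and 24.90 FPKM in siPHF20L1 libraries, against 12.89, 13.16 and 14.97 FPKM in siControl libraries. It rose by a log2 difference of 0.74 (SE 0.08, limma, adjusted p = 7.94e-05), and ZNF346, which binds double-stranded RNA, rose by 0.44. ZNF593, another ribosome factor, had 21.97, 23.00 and 21.89 FPKM in siPHF20L1 libraries, against 22.90, 31.09 and 31.95 FPKM in siControl libraries. Its groups overlapped through siControl 1, and the log2 difference was -0.06 within number 1 and -0.47 within numbers 2 and 3. The call of ZNF593 was lost in 7 of 14 alternatives, among them the removal of any library but siControl 1.

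Among the most abundant members, directions were mixed. ZNF207, a spindle protein that loads BUB3 and the member with the highest level, had 71.95, 66.64 and 66.38 FPKM in siPHF20L1 libraries, against 81.53, 76.03 and 72.94 FPKM in siControl libraries. Its fall was small, with a log2 difference of -0.17 (SE 0.06, limma, adjusted p = 0.0467), and it was lost in 8 of 14 alternatives, among them the removal of siPHF20L1 2 or 3 or of siControl 1 or 2. ZNF706 had 34.49, 33.02 and 32.63 FPKM in siPHF20L1 libraries, against 39.14, 36.95 and 35.90 FPKM in siControl libraries, and its call was lost in 7 of 14, among them the removal of any library but siPHF20L1 1. ZNF768 had 43.23, 52.50 and 49.33 FPKM in siPHF20L1 libraries, against 30.55, 34.99 and 36.17 FPKM in siControl libraries. ZNF787 had 36.63, 45.12 and 43.99 FPKM in siPHF20L1 libraries, against 23.37, 28.08 and 29.15 FPKM in siControl libraries. In both, every siPHF20L1 library was above every siControl library. ZNF114, the most abundant KRAB gene, had 46.02, 41.13 and 42.52 FPKM in siPHF20L1 libraries, against 28.04, 29.44 and 28.17 FPKM in siControl libraries, a log2 difference of 0.58 (SE 0.06, limma, adjusted p = 6.98e-05). ZNF511 had 29.79, 34.86 and 34.76 FPKM in siPHF20L1 libraries, against 40.75, 44.90 and 47.82 FPKM in siControl libraries.

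Members moved alike within the library numbers. The median log2 difference of the 208 members was 0.24 for number 1 and 0.27 for numbers 2 and 3. For KRAB members the medians were 0.40 and 0.44. Each of the 107 members that rose and the 25 that fell kept its direction in both comparisons. Among all genes tested, 3925 of 3926 rises and 2849 of 2851 falls did so too. Spearman's rho between the differences of number 1 and of numbers 2 and 3 was 0.96 over 208 members. The fit itself used all of these libraries, so the kept directions are no separate check.

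**Figure D5:**
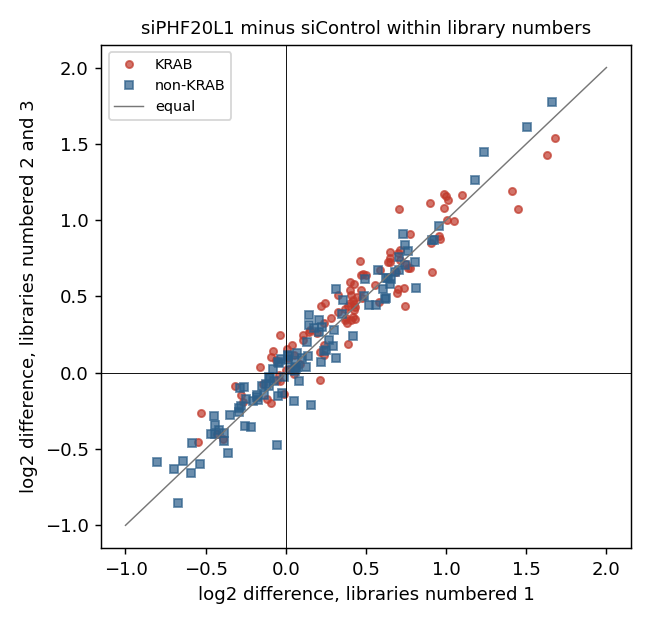
Log2 difference, siPHF20L1 minus siControl, within the libraries numbered 2 and 3 (vertical axis) against that within the libraries numbered 1 (horizontal axis), for each of the 208 members. Points lie along the line of equal values, and the medians are 0.27 and 0.24.

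Related zinc finger families at the same level were set beside the ZNF members. Of 65 genes of the ZBTB, ZSCAN or ZKSCAN, ZFP and KLF or SP families with at least 3 FPKM, 25 rose and 11 fell, with a median of 0.12. These shares were 38.5% and 16.9%, beside 34.0% and 24.7% of all genes tested. With at least 3 FPKM in each group, 20 of 58 rose and 10 fell, or 34.5% and 17.2%. All genes held to that level gave 32.4% and 26.0%. Of the 8 genes of these families with a KRAB A-box, 4 rose and 1 fell, and 2 of 5 rose with at least 3 FPKM in each group. Words picked in earlier work on these data, CAAGAT or TAAGGA in the longest annotated 3′ UTR, were carried by 69 KRAB members. Of these carriers 46 rose and 5 fell (median 0.44), and of the 35 without them 24 rose and 0 fell (median 0.38). Over all genes tested, 31.6% of carriers rose and 28.6% fell, against 36.8% and 20.3% of genes without the words. All 5 falls of KRAB genes were in carriers, which make up 69 of the 104. With at least 3 FPKM in each group, 23 of 44 KRAB carriers and 19 of 30 others rose (medians 0.24 and 0.35). The part of these words in the members' differences was not tested.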

How the data were processed

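Poly-A RNA was sequenced in 6 libraries, 3 per group, made with a stranded kit per the labels' protocols. Per the submitters' processing notes, Bowtie 0.12.2, TopHat2 2.1.1, HTSeq 0.6.0 and the build GRCh37 were used, with no roles given. Per the file headers, the authors deposited FPKM, 1 value per gene and library; which annotation and strand setting were used, and how reads with several matches were handled, is not given in the sources used here. The files hold no counts, so depth was estimated from the steps of low FPKM, and library sums of FPKM were 395250.9 to 416138.4.

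Genes with at least 1 FPKM in at least 3 libraries (11560 of 17452, all 208 members among them) were tested with limma 3.58.1 (R 4.3.3) on log2(FPKM + 1) with an intensity trend and no block, two-sided, with Benjamini-Hochberg adjustment over all genes tested and a threshold of 0.05. A log2 difference on this scale understates the change of low genes. In simulated data of 11560 genes for this comparison, 65 of 100 genes changed by a log2 of 0.5 and 98 of 100 changed by 1 were recovered, with 8 false calls. Only these genes were changed there and the scatter was independent between libraries. In the data 6777 genes were called and same-numbered libraries correlated, so these rates do not carry over. Deviations of same-numbered libraries from their group means correlated at 0.734, 0.436 and 0.419 for numbers 1, 2 and 3, which the block uses; siControl 3 with siPHF20L1 2 gave 0.49, so the numbers 2 and 3 are not told apart, and the labels do not say what a number marks.

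A KRAB A-box was called where at least 20 of 41 positions matched in a protein translated from GENCODE 29 (members with KRAB scored at least 21 and the others at most 19; the limit was set after the scores were seen). Fingers and SCAN domains were counted by letter patterns, fingers as the maximum over a gene's proteins. Promoters are RefSeq's (GRCh38.p14), the first listed per gene; gene positions are not given because the builds differ. Members, lists and named genes were chosen with earlier results of these data known. Named are the 12 largest rises and 12 largest falls past the threshold, the 8 highest levels, the 3 genes on each side of the level threshold and the listed genes; others are said to be singled out. Alternatives were another pseudocount, no filter, 3 scalings, the block, each library left out, libraries 2 and 3 averaged or alone, and other level thresholds.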

Additional observations from a re-analysis of the deposited data

How the results depend on the processing

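Counts of members that rose stayed within 1.5 times the main value under the 14 alternatives of pseudocount, filter, scaling, block and libraries, between 89 and 118 for all members and between 58 and 74 for KRAB members. The median log2 difference of the members was 0.30 with a pseudocount of 0.1, 0.16 after quantile normalization, 0.21 after median-ratio scaling and between 0.26 and 0.28 with 1 library left out. That of KRAB members was 0.50 with the pseudocount of 0.1 and 0.34 with quantile normalization. That of members without KRAB was 0.02 after median-ratio scaling and turned to -0.01 after quantile normalization, where the median of all genes tested moved by -0.07. Falls of KRAB members numbered 8 with quantile normalization and 8 with the replicate block, which also gave 40 falls of all members, 32 of members without KRAB and 20 calls in the corepressor list. With libraries 2 and 3 averaged, which leaves fewer samples, 13 members without KRAB fell and 6 genes of the corepressor list were called. A level threshold of 1 FPKM gave 190 rises, and one of 5 FPKM gave 56 with a median of 0.16; these change how many genes are counted. Further level thresholds were added after seeing the data. At least 3 FPKM in each group gave a median of 0.15 for all members and 0.31 for KRAB members, with 47 KRAB calls of which 42 were rises. At least 3 FPKM in siControl gave 0.14 and 0.30, with 48 calls of which 42 were rises. The cause of these changes was not tested. For the 94 other named genes, 1182 of 1316 values kept their side of the threshold, 91 lost it, 43 gained it and 0 called values changed sign. The limits at this depth are those of 3 libraries per group, with counting error unknown.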
